A study of Mus musculus with 6 samples.

Results

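Rab GTPases are small membrane-bound switches, and 57 of the 18193 genes measured on these arrays belong to the family by symbol. Members were all genes whose platform symbol is Rab followed directly by a digit. Rab27a and Rab27b were left out, as were genes named for a Rab partner such as Rab3gap1. The 57 genes were read by 124 probe sets, the short-oligonucleotide groups that each give 1 value per array. Of the 57 genes, 36 had more than 1 probe set. Where a gene had several, the probe set with the highest mean over the 6 arrays stood for it.

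The arrays measured islet RNA of 6 animals, 3 per group and 1 per array, all 8 weeks old and of a mixed genetic background (SV 129/C57BL/6). The control animals were PPARbetafl/fl littermates, in which both copies of Ppard, the gene of the nuclear receptor PPAR-beta, carry loxP sites. The knockout animals were Pdx1Cre;PPARbetafl/fl, which carry the same floxed alleles and Cre under control of the promoter of Pdx1. That promoter is active throughout the developing pancreas, so recombination is not limited to beta cells. No group with the Cre transgene alone was analysed here, so the loss of Ppard and the presence of Cre cannot be told apart. The labels name the material beta cells, whereas their protocol describes whole islets freed with collagenase and purified on a gradient.

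A Rab protein is held inactive in the cytosol by a GDP dissociation inhibitor, is switched on at a membrane by an exchange factor, recruits effectors such as motors and tethers while it carries GTP, and is switched off by a GTPase activating protein. Each organelle of the secretory and endocytic routes carries its own members. In islet endocrine cells the family is best known for the Rab3 proteins on hormone granules, where they act in docking and release.

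Array medians lay between 5.39 and 5.49 on the log2 scale. Ppard itself was not lower in the knockout arrays. Its log2 values were 7.75, 7.56 and 7.12 in the control arrays and 8.01, 8.20 and 7.70 in the knockout arrays, a difference of 0.49 ± 0.20 (SE, limma adjusted p = 0.377). Which part of the gene that probe set reads was not analysed here, so it does not check the labels. A mean level was taken over 19 acinar marker genes (of 24 listed, none of them past the test). They encode digestive enzymes, related proteins of exocrine cells, and the transcription factors Ptf1a, Bhlha15 and Rbpjl. This mean was 6.92, 10.94 and 10.88 in controls 1, 2 and 3 and 8.48, 5.75 and 5.85 in knockouts 1, 2 and 3. Controls 2 and 3 therefore stood apart from the other arrays, and results on the Rab genes are given also without them. Bhlha15 and Rbpjl did not follow this pattern, with knockout minus control differences of 0.65 and 0.08. The mean of 8 beta cell markers was 11.72 to 12.04 in control and 11.37 to 11.72 in knockout arrays, and the mean of 3 alpha cell markers was 11.50 to 11.63 and 11.16 to 11.28. The mean of 5 delta and PP cell markers was 10.74 to 10.92 and 10.03 to 10.12, and that of 11 immune markers 6.36 to 6.49 and 6.83 to 7.19. In such bulk samples, fewer cells of a type and less RNA per cell cannot be told apart.

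None of the 57 Rab genes passed an adjusted p of 0.05 in limma on its brightest probe set. Across all genes 200 did, which is 1.10%. The lowest adjusted p among the Rab genes was 0.0593, for Rab3c. With an unadjusted p under 0.05 there were 13 Rab genes, 8 higher and 5 lower in the knockout arrays, or 22.8% of the family against 14.0% of all genes. In 12 Rab genes (21.1%) every knockout array lay above every control array, as in 12.1% of all genes. In 6 (10.5%) every knockout array lay below every control array, as in 9.06% of all genes. The median difference, knockout minus control, was 0.07 over the family and 0.00196 over all genes, on the log2 scale. The differences ran from -1.30 to 1.99, and 34 of the 57 were smaller than 0.25 in size. Among probe sets instead of genes, 1 of the 124 passed, against 0.897% of all probe sets, and it reads Rab3c.

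**Figure D1:**
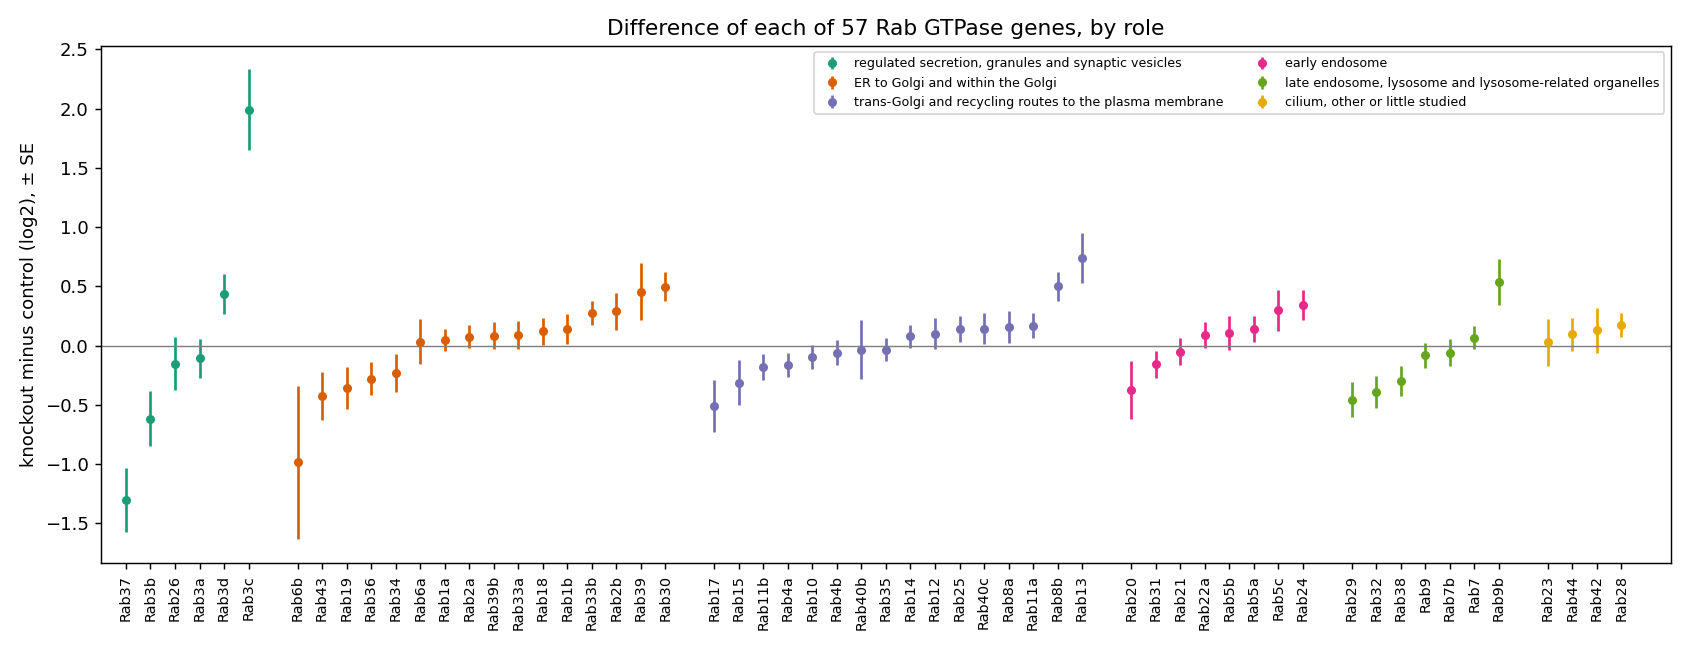
The vertical axis gives the difference, knockout minus control, in log2 units for each of the 57 Rab genes on its brightest probe set, with limma's standard error as bars (3 arrays per group). Genes are grouped and coloured by role along the horizontal axis, and most lie near 0, while Rab3c at 1.99 and Rab37 at -1.30 mark the ends of the range.

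The widest range of differences was within the 6 members tied to regulated secretion, granules and synaptic vesicles, 2 of which had a higher and 4 a lower mean in the knockout arrays. The 4 Rab3 genes encode close paralogs on granules and synaptic vesicles, and their differences did not share a sign. The stretches of 250 bases before the annotated start of Rab3b, Rab3c and Rab3d are shown because these 3 paralogs had an unadjusted p under 0.05 and differed in direction. They come from RefSeq on build GRCm38.p6 and read 5′ to 3′ on the strand of the gene. Capitals mark a GC box (GGGCGG, or CCGCCC on the other strand), a TATA box (TATAAA) or a CCAAT box (CCAAT, or ATTGG on the other strand).
Rab3b, chr4:108878820-108879069, plus strand: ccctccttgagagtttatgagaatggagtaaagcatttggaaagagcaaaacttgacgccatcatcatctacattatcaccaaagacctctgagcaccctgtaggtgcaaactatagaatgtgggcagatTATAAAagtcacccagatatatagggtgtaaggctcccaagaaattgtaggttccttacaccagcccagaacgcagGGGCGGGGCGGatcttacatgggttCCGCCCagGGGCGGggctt
Rab3c, chr13:110280207-110280456, minus strand: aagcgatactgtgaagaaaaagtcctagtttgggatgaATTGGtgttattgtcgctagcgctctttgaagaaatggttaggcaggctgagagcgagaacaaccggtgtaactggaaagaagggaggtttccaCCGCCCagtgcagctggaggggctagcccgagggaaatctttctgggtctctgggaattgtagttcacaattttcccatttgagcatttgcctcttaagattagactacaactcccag
Rab3d, chr9:21918184-21918433, minus strand: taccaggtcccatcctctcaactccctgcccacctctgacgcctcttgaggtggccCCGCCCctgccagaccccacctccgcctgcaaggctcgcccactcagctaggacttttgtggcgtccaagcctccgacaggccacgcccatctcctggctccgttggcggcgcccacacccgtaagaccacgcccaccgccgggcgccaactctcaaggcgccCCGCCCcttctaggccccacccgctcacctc
The Rab3b stretch held 4 GC boxes, of which the first 2 overlap by 1 base, and a TATA box. That of Rab3c held 1 GC box and 1 CCAAT box, and that of Rab3d 2 GC boxes. The GC content was 48.8% for Rab3b, 47.6% for Rab3c and 69.2% for Rab3d, with 6, 7 and 18 CpG dinucleotides.

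Rab3c, a granule and synaptic vesicle member of the family, had log2 values of 7.38, 6.00 and 6.36 in the control arrays and 8.32, 8.64 and 8.74 in the knockout arrays. All 3 knockout arrays lay above all 3 control arrays, and the controls were the more scattered. The means were 6.58 ± 0.72 and 8.57 ± 0.22 (SD, n = 3 each), a difference of 1.99 ± 0.34 (SE), or 3.97-fold, with a limma adjusted p of 0.0593. Controls 2 and 3, the arrays with the highest acinar marker level, were the lowest for Rab3c. With the acinar marker mean as a covariate the difference was 1.27 ± 0.22 (adjusted p = 0.146), and without controls 2 and 3 it was 1.19 (adjusted p = 0.157). Without control 1 it was 2.39 and passed, with an adjusted p of 0.00579.

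The array holds 5 probe sets for Rab3c. On the second brightest, the values were 6.57, 5.93 and 5.89 in the control arrays and 7.78, 7.67 and 8.02 in the knockout arrays. That probe set rose by 1.69 (limma adjusted p = 0.0191), and it was followed through the alternatives after its values were seen. With the acinar covariate its difference was 1.34 (adjusted p = 0.116), without controls 2 and 3 it was 1.25 (adjusted p = 0.127), and the adjusted p was also above 0.05, up to 0.093, on leaving out any single array other than control 1. On the next brightest, the values were 6.08, 4.78 and 4.94 against 7.25, 7.19 and 7.15, with a difference of 1.93 (adjusted p = 0.0561). The 3 brightest probe sets thus each separated the groups, with control 1 the highest control on each. The 2 dimmest overlapped between the groups, with differences of 0.69 (adjusted p = 0.342) and 0.0105 (adjusted p = 0.990).

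Rab37, a member found on secretory granules, had the most negative difference of the family. Its log2 values were 10.19, 9.54 and 10.11 in the control arrays and 9.16, 8.35 and 8.41 in the knockout arrays. All knockout arrays lay below all control arrays. The means were 9.95 ± 0.35 and 8.64 ± 0.45 (SD, n = 3 each), a difference of -1.30 ± 0.27 (SE), which did not pass (limma adjusted p = 0.0985). The second probe set read 8.73, 7.84 and 8.61 against 7.61, 6.92 and 7.43, again without overlap, with a difference of -1.07 (adjusted p = 0.175). The Rab37 difference was -1.23 ± 0.38 (SE) with the acinar covariate, and without controls 2 and 3 it was -1.55.

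Rab3b read 8.97, 8.15 and 8.93 in the control arrays and 8.17, 7.91 and 8.13 in the knockout arrays. Knockout 1 lay just above control 2, so the groups overlapped, and the difference of -0.62 ± 0.23 (SE) did not pass (adjusted p = 0.334). Rab3d, known also from the zymogen granules of acinar cells, read 10.37, 10.10 and 10.23 against 10.93, 10.71 and 10.35. Knockout 3 lay below control 1, and the difference of 0.43 ± 0.17 (SE) did not pass (adjusted p = 0.350). Its 4 probe sets all had a higher knockout mean, with differences of 0.27 to 0.49. All but the brightest separated the groups, though none passed (limma adjusted p 0.117 to 0.424 on those). The differences were -0.78 for Rab3b and 0.46 for Rab3d with the acinar covariate, and -0.90 and 0.29 without controls 2 and 3.

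Rab3a, the member most studied at synapses and on insulin granules, read 9.20, 8.66 and 8.97 in the control arrays and 8.71, 8.83 and 8.97 in the knockout arrays. The groups interleaved, with a difference of -0.11 ± 0.16 (SE, adjusted p = 0.833), which turned to 0.0203 without control 1. It was -0.37 both with the acinar covariate and without controls 2 and 3. Rab26, a secretory granule member described in exocrine cells, was dim, at 4.03, 4.17 and 3.95 against 3.86, 3.46 and 4.38. Its knockout arrays spanned the range of the controls, with a difference of -0.15 ± 0.23 (SE, adjusted p = 0.835), which turned to 0.07 without knockout 2.

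**Figure D2:**
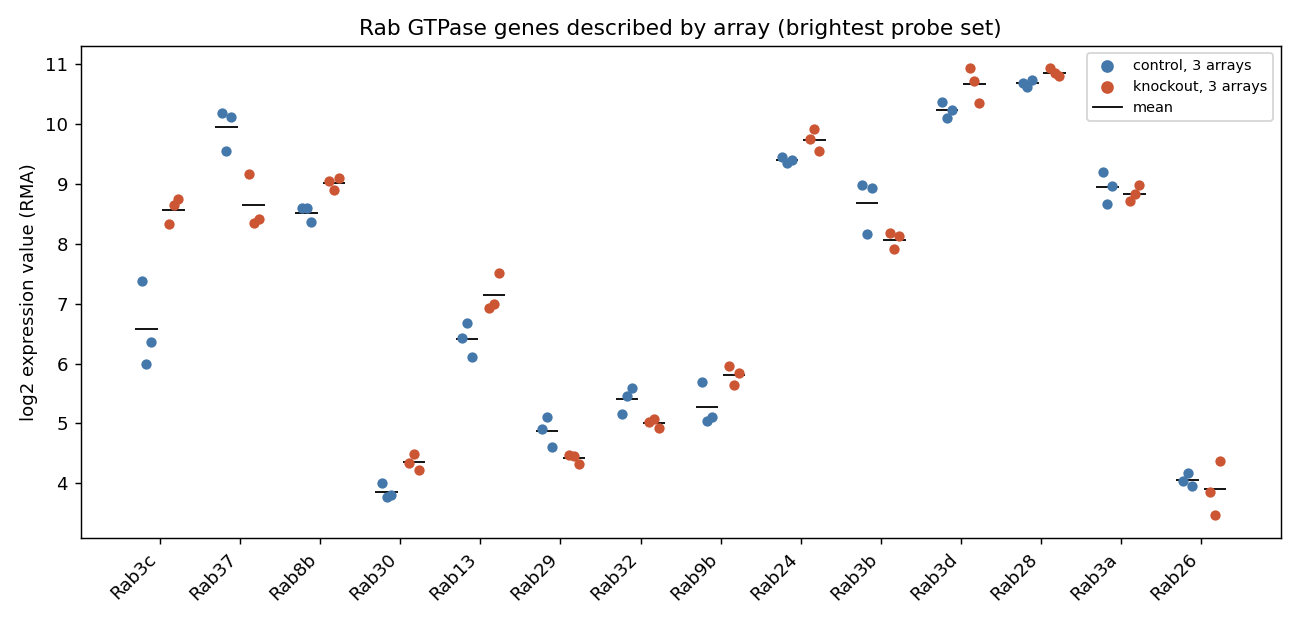
Points are the log2 values of single arrays on the brightest probe set of 14 Rab genes, with 3 control and 3 knockout arrays side by side and a line at each mean. The 2 groups are separate for Rab3c and Rab37 and interleave for Rab3a and Rab26.

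**Figure D3:**
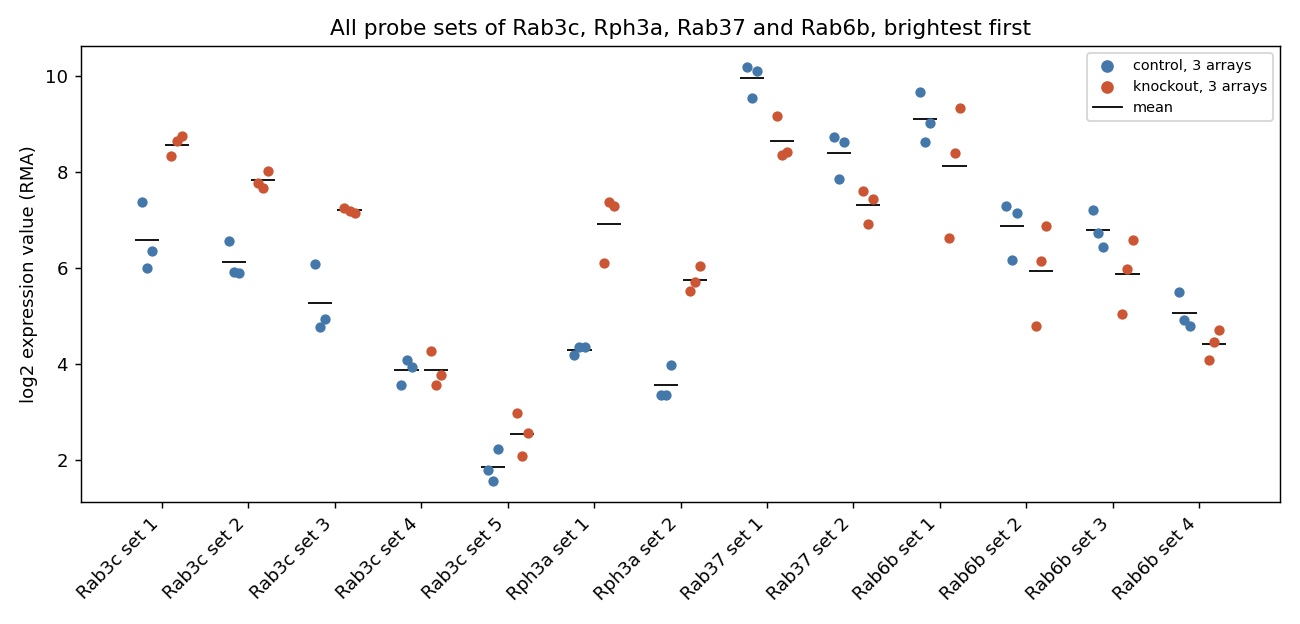
Points are the log2 values of single arrays on every probe set of Rab3c, Rab37, Rab6b and the Rab3 effector Rph3a, brightest first, with a line at the mean of 3 arrays. The groups are separate on the first 3 probe sets of Rab3c and on both of Rph3a and Rab37, and they overlap on the 3 brighter probe sets of Rab6b.

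Of the 16 members that act between the endoplasmic reticulum and the Golgi or within the Golgi, 11 had a higher and 5 a lower mean in the knockout arrays, with a median difference of 0.08. Rab30, a Golgi member, had the lowest p of them. It was dim, at 4.0004, 3.77 and 3.80 in the control arrays and 4.34, 4.49 and 4.23 in the knockout arrays. The groups did not overlap, and the difference of 0.50 ± 0.12 (SE) did not pass (adjusted p = 0.154). Its second probe set differed by 0.03. Rab33b, which binds the autophagy protein Atg16l1 at the Golgi, read 9.57, 9.51 and 9.48 against 9.81, 9.88 and 9.70, without overlap (difference 0.28, adjusted p = 0.333). It was described after its values were seen.

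The core members of the early secretory route had small differences. Rab1a, required for transport from the endoplasmic reticulum to the Golgi, read 12.69, 12.67 and 12.63 in the control arrays and 12.73, 12.71 and 12.70 in the knockout arrays, a difference of 0.05 ± 0.09 (SE). Its groups did not overlap because each was tight, although the difference was small. Rab2a, which acts on the same route, differed by 0.08 ± 0.10 and Rab6a, which guides retrograde Golgi transport, by 0.03 ± 0.19.

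Rab6b, the Rab6 paralog best known from neurons, was the most scattered gene of the family, and it was described after its values were seen. Its values were 9.66, 8.62 and 9.02 in the control arrays and 6.63, 8.39 and 9.32 in the knockout arrays. Knockout 1 was far below the other 5 arrays, and knockout 3 lay above 2 of the controls. The difference was -0.99 ± 0.65 (SE, adjusted p = 0.579), with an SD of 1.37 among the knockout arrays. All 4 of its probe sets had a lower knockout mean, by differences of -0.99 to -0.65, and knockout 1 was the lowest array on each. With the acinar covariate the difference was -2.14 ± 0.61 (adjusted p = 0.365), and without controls 2 and 3 it was -1.55. Without knockout 1 it was -0.25 (adjusted p = 0.899), so that array carried most of the difference.

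The 16 members of the trans-Golgi and recycling routes to the plasma membrane divided into 8 with a higher and 8 with a lower knockout mean (median difference 0.02). Rab8b, which carries vesicles from the trans-Golgi to the cell surface, read 8.59, 8.60 and 8.36 in the control arrays and 9.05, 8.90 and 9.10 in the knockout arrays. The groups did not overlap, and the difference of 0.50 ± 0.12 (SE) did not pass (adjusted p = 0.147). Its second probe set differed by 0.07. Rab13, known from the delivery of tight junction proteins, read 6.43, 6.68 and 6.10 against 6.92, 6.998 and 7.51. Those groups did not overlap either, with a difference of 0.74 ± 0.21 (SE, adjusted p = 0.214), the second highest of the family.

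The Rab11 subfamily, which marks the recycling endosome, did not share a sign. Rab11a differed by 0.17 and Rab25, its epithelial relative, by 0.14, each without overlap and with higher knockout arrays. The second probe set of Rab11a separated the groups the other way, with a difference of -0.15 (adjusted p = 0.614). Rab11b differed by -0.18 without overlap, but its 3 probe sets ran from -0.18 to 0.48. Rab4a, a marker of fast recycling, differed by -0.16 without overlap. None of these passed, and the adjusted p was 0.545 for Rab11b and 0.643 for Rab25. Rab10, which acts in the delivery of the glucose transporter GLUT4 in other tissues, differed by -0.10, Rab14 by 0.08 and Rab35 by -0.03.

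Rab17, a member of polarised epithelia, was dim and highest in controls 2 and 3, the acinar-rich arrays, and it was chosen after its values were seen. It read 3.55, 4.18 and 3.91 in the control arrays and 3.44, 3.01 and 3.66 in the knockout arrays, a difference of -0.51 ± 0.22 (SE, adjusted p = 0.400). Its second probe set read 2.98, 4.51 and 4.40 against 3.11, 2.78 and 2.54, with controls 2 and 3 above the other 4 arrays and a difference of -1.15 (adjusted p = 0.309). With the acinar covariate the difference of the brighter probe set was -0.22, and without controls 2 and 3 it was -0.18.

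Among the 8 early endosome members, 5 had a higher and 3 a lower knockout mean. Rab24, a member tied to autophagy, had the lowest p of them, with values of 9.45, 9.34 and 9.40 in the control arrays and 9.74, 9.92 and 9.55 in the knockout arrays. The groups did not overlap, and the difference of 0.34 ± 0.13 (SE) did not pass (adjusted p = 0.330). Its second probe set differed by 0.49. Of the 3 Rab5 paralogs, which drive fusion of early endosomes, Rab5a differed by 0.14, Rab5b by 0.11 and Rab5c by 0.30, and the groups were separate for Rab5a alone of the 3. The sign turned for Rab5b without controls 2 and 3, and for Rab5c without them and with the acinar covariate. The cause was not tested. Without controls 2 and 3 the differences were 0.04 for Rab5a, -0.05 for Rab5b and -0.05 for Rab5c, and the acinar covariate gave 0.05, 0.0146 and -0.00476.

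Among the 7 members of late endosomes, lysosomes and related organelles, 2 had a higher and 5 a lower knockout mean (median difference -0.08). Of them 4 had an unadjusted p under 0.05, a threshold met by 14.0% of all genes. Those 4 had mean log2 values under 6, so the alternative with a floor of 6 left them out. Rab29, a lysosome and trans-Golgi member, read 4.90, 5.11 and 4.61 in the control arrays and 4.47, 4.45 and 4.32 in the knockout arrays. The groups did not overlap, and the difference of -0.46 ± 0.15 (SE) did not pass (adjusted p = 0.268). Rab32, which acts on melanosomes and other lysosome-related organelles, read 5.17, 5.45 and 5.59 against 5.03, 5.08 and 4.93, a difference of -0.39 ± 0.14 (SE, adjusted p = 0.305). Its groups were also separate. Rab38, the closest relative of Rab32, was dim, with a control mean of 3.78. It differed by -0.30 without overlap (adjusted p = 0.384), while its second probe set overlapped, with a difference of -0.23.

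The Rab32 difference was -0.21 with the acinar covariate, and without controls 2 and 3 it was -0.15. Rab9b, a paralog of the late endosome member Rab9, went the other way. It read 5.69, 5.05 and 5.10 in the control arrays and 5.96, 5.65 and 5.84 in the knockout arrays. Control 1 lay above knockout 2, and the difference of 0.53 ± 0.19 (SE) did not pass (adjusted p = 0.323). Without controls 2 and 3 it was 0.13. Rab7, the main Rab of late endosomes and lysosomes, had little spread, at 11.95, 11.92 and 11.95 against 12.00, 12.00 and 12.02, a difference of 0.07 ± 0.09 (SE).

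The 4 remaining members, which act at the cilium or are little studied, all had a higher knockout mean, by 0.03 to 0.18, although the sign of Rab23 turned without controls 2 and 3. Rab28, known from photoreceptor cilia, had the lowest p of them. It read 10.68, 10.62 and 10.73 in the control arrays and 10.92, 10.84 and 10.80 in the knockout arrays. Its groups were separate, with a difference of 0.18 ± 0.10 (SE, adjusted p = 0.528). Rab23, a regulator of Hedgehog signalling at the cilium, differed by 0.03, and by -0.17 with the acinar covariate and -0.30 without those 2 arrays.

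Of the 36 genes with more than 1 probe set, 24 had differences of a single sign on all of them and 12 did not. Those with mixed signs included Rab11a, Rab11b, Rab12 and Rab14, and the widest gap among them was that of Rab11b. The brightest probe sets of Rab2a, Rab4a and Rab24 carry the manufacturer's suffix for probes that match several transcripts, so their signal may be shared with related sequences.

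The differences were recomputed with the acinar marker mean as a covariate and, separately, without controls 2 and 3, both chosen with earlier results of these data known. The sign was the same in 54 of 57 genes with the covariate and in 53 of 57 without the 2 arrays. It was also the same in 13 of 13 genes with an unadjusted p under 0.05 in either case. Those 13 were picked by their difference on these same arrays, so a kept sign was likely and is no separate support. The lowest adjusted p of a Rab gene was then 0.146 and 0.157. The median difference over the family was 0.01 with the covariate and -0.02 without the 2 arrays. Without the 2 arrays every knockout array lay below the remaining control in 18 genes in place of 6 (31.6%, against 32.9% of all genes under that setting) and above it in 14 in place of 12 (24.6% against 27.9%). These counts rest on a single control array. The signs that turned were those of Rab12, Rab23 and Rab5c under both alternatives and of Rab5b without the 2 arrays.

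**Figure D4:**
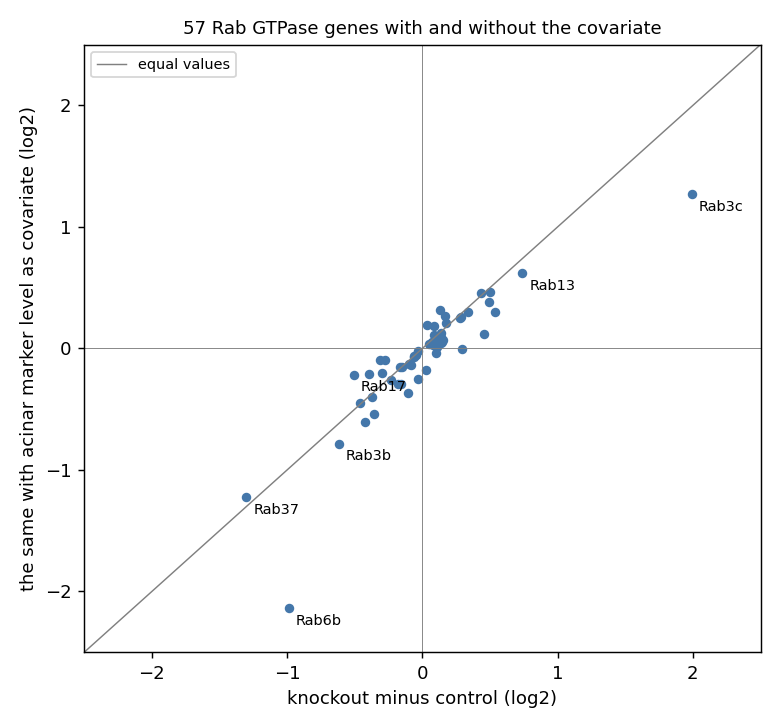
Each point is 1 of the 57 Rab genes, with the difference, knockout minus control, on the horizontal axis and the same difference with the acinar marker mean of each array as a covariate on the vertical axis, both in log2 units. Points on the diagonal are equal in both fits, and Rab3c lies below it, at 1.99 and 1.27, as does Rab6b, at -0.99 and -2.14.

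Of the regulators and effectors of the family, 121 of 128 listed genes were measured. Here 2 rose, none fell at an adjusted p of 0.05, and 119 did not pass. That compares with 1.10% of all genes passing in either direction. With an unadjusted p under 0.05 there were 20, of which 17 were higher and 3 lower, or 16.5% against 14.0% of all genes. A higher knockout mean was found for 81 and a lower one for 40, or 66.9% higher against 50.4% of all genes, with a median difference of 0.07. Every knockout array lay above every control array for 26 of them (21.5%, against 12.1% of all genes) and below for 6 (4.96% against 9.06%).

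The effector that rose was Rph3a, rabphilin, which binds Rab3 proteins in their GTP form on vesicles. Its log2 values were 4.19, 4.37 and 4.35 in the control arrays and 6.12, 7.37 and 7.28 in the knockout arrays. Rph3a was dim in the control arrays, and all knockout arrays lay well above them. Its mean over the 6 arrays was under 6, so the alternative with a floor of 6 on the mean log2 value left it out. The difference was 2.62 ± 0.32 (SE, limma adjusted p = 0.0196). The second probe set read 3.37, 3.35 and 3.995 against 5.52, 5.71 and 6.05, and it rose by 2.19 ± 0.22 (adjusted p = 0.00863). With the acinar covariate the difference of the brighter one was 2.30 (adjusted p = 0.168), and without controls 2 and 3 it was 2.74 (adjusted p = 0.176). Leaving out 1 array at a time gave 2.40 to 3.03, with an adjusted p under 0.05 without control 1 or knockout 1 and of 0.0667 to 0.0993 without any 1 of the other 4. The Rab effectors as a list held 44 measured genes, 29 with a higher and 15 with a lower knockout mean.

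Also among the effectors, Rab11fip2, which links Rab11 to the motor myosin Vb, read 7.80, 8.07 and 7.70 in the control arrays and 8.75, 8.59 and 8.54 in the knockout arrays. The groups did not overlap, and the difference of 0.77 ± 0.13 (SE) did not pass (adjusted p = 0.0616). Rab11fip2 did pass after median centring, with a floor of 6 on the mean log2 value and with a trended and robust spread. It did not pass with the acinar covariate or with the mean of its probe sets. Nor did it pass on leaving out any 1 array (limma adjusted p 0.0683 to 0.227). Its other probe sets were also without overlap, with smaller differences of 0.28 (adjusted p = 0.341) and 0.41 (adjusted p = 0.303). Myo5b, the gene of that motor, was chosen after its values were seen, and read 7.47, 7.39 and 7.14 against 6.58, 6.70 and 6.38. It lay lower in all 3 knockout arrays, with a difference of -0.78 ± 0.14 (SE) that did not pass (adjusted p = 0.0633). Its 2 dimmer probe sets overlapped between the groups, with differences of -0.13 (adjusted p = 0.850) and -0.05 (adjusted p = 0.909). Myo5a, the gene of the related motor myosin Va, was also chosen after its values were seen. It read 8.87, 8.54 and 8.29 in the control arrays and 9.42, 9.37 and 9.29 in the knockout arrays, without overlap. The difference of 0.79 ± 0.16 (SE) did not pass (adjusted p = 0.0944), and its 3 probe sets differed by 0.79 to 0.81. Myo5a did pass with a floor of 6 on the mean log2 value, with a trended and robust spread and with the mean of its probe sets. It also passed without control 1, but not without any other single array and not with the acinar covariate. Controls 2 and 3, the acinar-rich arrays, were its lowest controls.

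The inactivators held 38 measured genes, with 29 higher and 9 lower knockout means and a median difference of 0.10. Tbc1d9b, a protein with the catalytic TBC domain of these enzymes, was the member that rose. It read 9.04, 9.21 and 9.13 in the control arrays and 9.93, 9.86 and 9.71 in the knockout arrays. The groups were separate, and the difference was 0.71 ± 0.11 (SE, limma adjusted p = 0.0459). The second probe set differed by 0.78 (adjusted p = 0.0340) and a dimmer one by -0.22 (adjusted p = 0.542). The call did not hold on leaving out any 1 array (adjusted p 0.0637 to 0.194), with the acinar covariate (0.155) or without controls 2 and 3 (0.188), with differences of 0.66 to 0.82. It was also lost after a further quantile normalization (0.0579), with the replicate block (0.12) and with the mean of all 3 probe sets, where the difference was 0.42 (0.091). Its paralog Tbc1d9 read 6.16, 6.34 and 6.46 against 6.88, 7.85 and 7.29, without overlap, a difference of 1.02 ± 0.24 (SE, adjusted p = 0.145).

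No gene of the 32 activators passed, and 18 had a higher and 14 a lower knockout mean. Dennd2d, an exchange factor with a DENN domain, read 7.59, 7.58 and 7.16 in the control arrays and 7.98, 8.07 and 7.86 in the knockout arrays, a difference of 0.53 ± 0.15 (SE, adjusted p = 0.208). Dennd5b, of the same class, read 6.88, 6.34 and 6.24 against 7.11, 6.95 and 7.02, a difference of 0.54 ± 0.18 (SE, adjusted p = 0.282). Neither gene overlapped between the groups on its brightest probe set, but the second probe set of Dennd2d did, with a difference of 0.12. The other probe sets of Dennd5b differed by 0.51 without overlap, and by 0.17 and 0.71 with overlap. The Dennd5b difference was 0.29 with the acinar covariate and 0.15 without controls 2 and 3, and it was 0.74 and passed without control 1 (adjusted p = 0.0449).

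Among the 7 measured genes of GDP dissociation, escort and prenylation, which solubilise Rab proteins and attach their lipid anchor, 5 had a higher and 2 a lower knockout mean and none passed. Chml, a Rab escort protein, read 6.60, 6.43 and 6.58 in the control arrays and 6.64, 7.40 and 7.12 in the knockout arrays, a difference of 0.52 ± 0.20 (SE, adjusted p = 0.341). Rabif, a guanine nucleotide-free Rab binding protein, read 8.58, 8.55 and 8.66 against 8.73, 8.80 and 8.77, a difference of 0.17 ± 0.10 (SE, adjusted p = 0.535). Both were without overlap, by a narrow margin for Chml, whose knockout 1 lay close to the controls. The Chml difference was 0.26 with the acinar covariate and 0.34 without knockout 2. The other 3 probe sets of Rabif differed by 0.07, 0.09 and -0.29, the last with every knockout array below every control array, and the mean of its 4 probe sets by 0.0099.

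Side by side with these differences, the beta, alpha, delta and PP cell marker levels were lower and the immune marker level higher in every knockout array than in every control array, narrowly so for beta cells. Of the 8 beta cell markers 1 fell, Slc30a8, the zinc transporter of insulin granules (-0.82, limma adjusted p = 0.0394). The others did not pass and ran from -0.95 for Ucn3 to 0.04 for G6pc2. Of the 5 delta and PP cell markers 2 fell, Rbp4 (-0.73, adjusted p = 0.0265) and Ghsr (-1.17, adjusted p = 0.0097). Of the 11 immune markers 1 rose, Laptm5 (1.34, adjusted p = 0.00425), and no alpha cell marker passed. The duct, endothelial and fibroblast marker levels overlapped between the groups. Of the 5 duct markers 1 rose, Cftr (3.92, limma adjusted p = 0.000937). Krt19, another duct marker, was highest in controls 2 and 3, at 9.32 and 9.21, and did not pass. No endothelial or fibroblast marker passed. The part of these marker levels in the values of the Rab genes and their partners was not tested.

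The promoter table held entries for 47 of the 57 genes, 58 stretches of 250 bases before a start, beside 32851 for all genes. The family's stretches were richer in GC, with a median of 60.2% against 52.4%, and in CpG, with a median of 15.5 dinucleotides against 6. On either strand, the GC box occurred in 39 of the 58, or 67.2%, against 32.7% of all. The CCAAT box occurred in 23 (39.7% against 33.9%), the TATA box in 4 (6.9% against 12.4%) and the E-box CACGTG in 4 (6.9% against 6.02%). The half-site of nuclear receptors, AGGTCA, occurred in 3 (5.17% against 14.0%), those of Rab31, Rab32 and Rab43. A direct repeat of that half-site with 1 base between, the arrangement that PPARs bind with their partner RXR, was in none of the 58 and in 11 of all 32851. The STAT element TTCNNNGAA was in 5 (8.62% against 7.02%). A match is a description of these letters in this window, and no entry was used for Rab37 or Rab30.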

How the data were processed

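RNA from islets of 6 mice was hybridised to 1-colour Affymetrix arrays, 3 per group. Each probe set has 1 deposited value per array, on the log2 scale. The submitters' processing notes name RMA (no version given), a method that summarises probes after background correction and quantile normalization. Such values carry no detection call, and the small number of arrays limits the precision. Of 45101 probe sets, 64 controls were left out, and 34945 of the remaining 45037 had a single gene symbol in the platform annotation, which gave 18193 genes. Probe sets with several symbols (932) or none (9160) named no gene.

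The comparison used limma 3.58.1 under R 4.3.3, with lmFit, eBayes and two-sided p-values. The Benjamini-Hochberg adjustment ran over all 45037 tested, and a call is an adjusted p under 0.05. The procedure was tested on simulated data. There 45.4% of 2-fold and 82.3% of 4-fold changes were called, and 5.2% of calls were false. A gene that is not called may therefore still differ. Levels of different genes are not compared, since probe sets differ in response.

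The members, roles, partner lists and markers were chosen with earlier results of these data known. Array values are given for calls, the 8 smallest p of the other Rab genes, the Rab3 genes, Rab26 and Rab37, the smallest p of each role, and, of the partners, calls and the 2 smallest p of each of 4 lists. Other genes given were chosen after their values were seen, with the groups' separation or their role in view. Alternatives were median centring, a further quantile normalization, a floor of 6 on the mean log2 value, a trended and robust spread, the replicate number as a block, the mean of a gene's probe sets, each array left out, an acinar covariate, and controls 2 and 3 left out. Promoter stretches came from RefSeq, build GRCm38.p6.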

Additional observations from a re-analysis of the deposited data

How the results depend on the processing

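Of the Rab genes, Rab3c and Rab37 were the ones called under any setting tried. The number of Rab genes that rose was 1 (Rab3c) in place of 0 with probe sets limited to a mean log2 of at least 6 (difference 1.99, limma adjusted p = 0.0316), with a trended and robust spread (1.99, 0.0206) and with the mean of all probe sets (1.26, 0.0133). It ranged from 0 to 1 on leaving out 1 array, and the Rab3c difference from 1.70 to 2.39. The number that fell was 1 with the trended and robust spread, Rab37 at -1.30 (0.0374). The median difference over the family was 0.121 after median centring, which moved the median of all genes to 0.0551. It was 0.0389 after a further quantile normalization, 0.0358 with the mean of probe sets, 0.0146 with the acinar covariate, -0.0188 without controls 2 and 3, and 0.0192 to 0.0749 on leaving out 1 array. Genes with every knockout array above every control array numbered 12 to 20 on leaving out 1 array. Those with every knockout array below numbered 10 after quantile normalization, and 3 of the 44 Rab genes kept with the floor. They numbered 18 without controls 2 and 3, and 8 to 11 on leaving out 1 array. Fewer arrays make separate groups more common for any gene, but the quantile normalization and floor counts used all 6 arrays. A count without the share of all genes under its setting is not read as a result about the Rab genes. The share of all genes below was 32.9% without controls 2 and 3, and is not given here for the other settings.

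Regulators and effectors that rose numbered 2, but 3 after median centring, 3 with the floor, 1 after quantile normalization and 4 with the trended and robust spread. They numbered 1 with the replicate block, 0 with the acinar covariate, and 0 to 3 on leaving out 1 array. With the mean of probe sets, Myo5a, Rph3a and Tbc1d4 were called. Those that fell numbered 0, but 1 each after quantile normalization, with the floor and with the trended and robust spread (Myo5b in each), and 0 to 1 on leaving out 1 array. The second Rab3c probe set differed by 1.69 with the replicate block (adjusted p = 0.0518), 1.34 with the acinar covariate, 1.25 without controls 2 and 3, and 1.57 to 1.92 on leaving out 1 array. Rab3a ranged from -0.2506 to 0.0203 and Rab26 from -0.3918 to 0.06619 on leaving out 1 array. Among the differences of the genes followed through every setting these were the 2 reversals, while 306 kept direction and side of the threshold, 25 no longer passed and 9 newly passed. Of the other Rab genes, recomputed with the acinar covariate and without controls 2 and 3 alone, Rab12, Rab23, Rab5b and Rab5c changed sign in 1 or both. Rab6b ranged from -1.59 to -0.25 on leaving out 1 array. The cause of these changes was not tested. Same-numbered arrays correlated at -0.0542, 0.141 and 0.00454 in their deviations from the group means. The labels state no pairing, and with 3 arrays per group these values cannot decide whether the numbers pair the animals. With the replicate number as a block, 246 probe sets were called in place of 404. No detection calls or probe-level signals were analysed, so a dim gene's level has no lower limit here.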
